A study of Mus musculus with 6 samples.

Results

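Cells sorted from adult pituitary glands by Cre recombinase under the growth hormone gene (Ghcre) were compared with a whole adult gland. Genes were taken by name, the FPKM of all annotated transcripts of a name was summed, and a gene entered where both tables list it. This gave 32923 of the 50348 genes listed in any of the 6 libraries of the series. Of these, 9887 were above 0 in both libraries and at 1 scaled FPKM or more in at least 1. FPKM is fragments per kilobase of transcript, relative to the mapped fragments of the library, and scaled FPKM is that value divided by 1 factor per library.

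The study sequenced total RNA of mouse pituitary glands after depletion of ribosomal RNA. The Ghcre library came from 12 pooled glands of 7-week-old Ghcre mice crossed to the ROSAYFP line, in which Cre switches on a yellow fluorescent protein, and only fluorescent cells were used. The whole-gland library came from 1 adult nontransgenic gland of unstated age in weeks. Libraries of adult Tshbcre and Lhbcre sorted cells, of P7 (postnatal day 7) Tshbcre sorted cells and of P7 whole glands are used here only for levels beside these. Cre marks every cell that expressed the driver at any time and the descendants of that cell, so fluorescence need not mean current growth hormone expression. Strain and sex are not given in the sources used here. With 1 library on each side there is no replicate, no difference was tested, and folds describe these 2 libraries.

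Somatotropes are the growth hormone cells of the anterior lobe. They share the transcription factor POU1F1 with lactotropes, which make prolactin, and thyrotropes, which make thyrotropin. Corticotropes and melanotropes cleave POMC into peptide hormones, and gonadotropes make the gonadotropins, whose alpha subunit, CGA, is also that of thyrotropin. Vessels, fibroblasts, immune cells, stem cells and the posterior lobe make up the rest of a whole gland.

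The Ghcre table stopped within chromosome 5. It reached the end of 14 chromosomes and listed 14195 of the 21737 protein-coding genes of the whole-gland table, or 65.3%. Ghrhr, the receptor for growth hormone-releasing hormone, lies on chromosome 6, which the Ghcre table did not reach. Gh and Prl lie on chromosomes 11 and 13, whose ends it reached, yet it lists neither. Gh is also not listed in the whole-gland and adult Lhbcre tables, nor Prl in the adult Lhbcre table. Chromosomes 12 and 14, also reached to their ends, had 86.9% and 90.3% of their whole-gland genes listed in both tables. Why such genes are not listed was not tested. No level of Gh, the driver gene, can be given for either library. The Ghcre library was 2.73 times as deep as the whole-gland library, judged by deposited coverage per FPKM. Unnamed assembled transcripts of 200 nt or more were 16.7% of all unnamed transcripts in the Ghcre table and 65.8% in the whole-gland table, so named genes were also compared with such transcripts added.

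Of the 3 markers of this lineage, Pappa2 and Neurod4 were higher in the Ghcre library and Pou1f1 was near its whole-gland level. Pappa2 encodes a protease that cleaves IGF binding proteins (chromosome 1, 158539297 to 158788019, mm39). It stood at 32.8 scaled FPKM in the Ghcre library and 18.7 in the whole gland, and at 4.67, 0, 4.12 and 3.36 in the adult Tshbcre, adult Lhbcre, P7 Tshbcre and P7 whole libraries. The Ghcre library was the highest of the 6. The 8975-nt transcript model held 28.2 in the Ghcre library, with deposited bounds of 27.0 and 29.5, and 18.7 in the whole gland, with bounds of 17.8 and 19.6. The 9494-nt model held 4.57 in the Ghcre library and is listed at 0 in the whole gland. With assembled transcripts added, Pappa2 stood at 32.8 and 22.9.

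Neurod4 encodes a basic helix-loop-helix transcription factor. It stood at 15.8 in the Ghcre library and 5.07 in the whole gland, with 1.92, 13.3, 2.36 and 4.02 in the adult Tshbcre, adult Lhbcre, P7 Tshbcre and P7 whole libraries. Its Ghcre level was the highest, with the Lhbcre level next. Pou1f1 stood at 40.3 in the Ghcre library and 39.0 in the whole gland. The deposited bounds of these values, 38.4 to 42.3 and 36.9 to 41.1, overlapped, and on FPKM as deposited, where the median of all genes was -0.45, Pou1f1 was lower in the Ghcre library. Adding assembled transcripts gave 58.8 and 54.0 for Pou1f1.

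The 250 bases before the start of 4 genes are printed because POU1F1 is a factor of this lineage, Pappa2 is a marker of it, and Pomc and Cga are hormone genes of other lineages. They come from RefSeq on GRCm38.p6, an older build than that of the files, and read 5′ to 3′ on the strand of the gene. Capitals mark the POU1F1-type motif TATNCAT, or ATGNATA on the other strand. Pou1f1, first of its listed start sites, is chr16:65520262-65520511 on the plus strand, Pappa2 is chr1:158958176-158958425 on the minus strand, Pomc is chr12:3954695-3954944 on the plus strand and Cga is chr4:34893529-34893778 on the plus strand.
Pou1f1: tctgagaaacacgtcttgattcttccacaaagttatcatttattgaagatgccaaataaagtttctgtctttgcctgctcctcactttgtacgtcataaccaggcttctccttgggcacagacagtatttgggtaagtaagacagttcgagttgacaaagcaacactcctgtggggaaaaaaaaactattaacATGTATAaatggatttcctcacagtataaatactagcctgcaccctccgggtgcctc
Pappa2: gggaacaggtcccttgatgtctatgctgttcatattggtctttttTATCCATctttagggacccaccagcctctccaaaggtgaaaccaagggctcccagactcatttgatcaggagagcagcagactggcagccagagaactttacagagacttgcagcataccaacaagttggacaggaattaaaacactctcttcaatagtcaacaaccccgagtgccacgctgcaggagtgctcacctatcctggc
Pomc: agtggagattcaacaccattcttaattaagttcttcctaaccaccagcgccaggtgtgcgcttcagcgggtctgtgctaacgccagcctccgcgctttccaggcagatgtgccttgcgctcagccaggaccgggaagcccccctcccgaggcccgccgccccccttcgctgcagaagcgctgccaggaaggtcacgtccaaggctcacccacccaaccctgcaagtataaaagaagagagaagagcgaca
Cga: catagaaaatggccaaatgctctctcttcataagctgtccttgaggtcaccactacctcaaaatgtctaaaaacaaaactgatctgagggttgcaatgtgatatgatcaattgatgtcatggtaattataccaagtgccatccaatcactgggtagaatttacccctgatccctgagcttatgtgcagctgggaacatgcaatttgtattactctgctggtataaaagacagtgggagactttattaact
The motif occurred at bases 194 to 200 of the Pou1f1 window and at bases 46 to 52 of the Pappa2 window. The Pomc and Cga windows do not hold these letters, nor does the window of the other Pou1f1 start site, chr16:65523059-65523308, which is not printed. Of all 32807 windows of this length, 2601 held the motif, or 7.93%. A match describes the letters and is not evidence of binding.

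**Figure D1:**
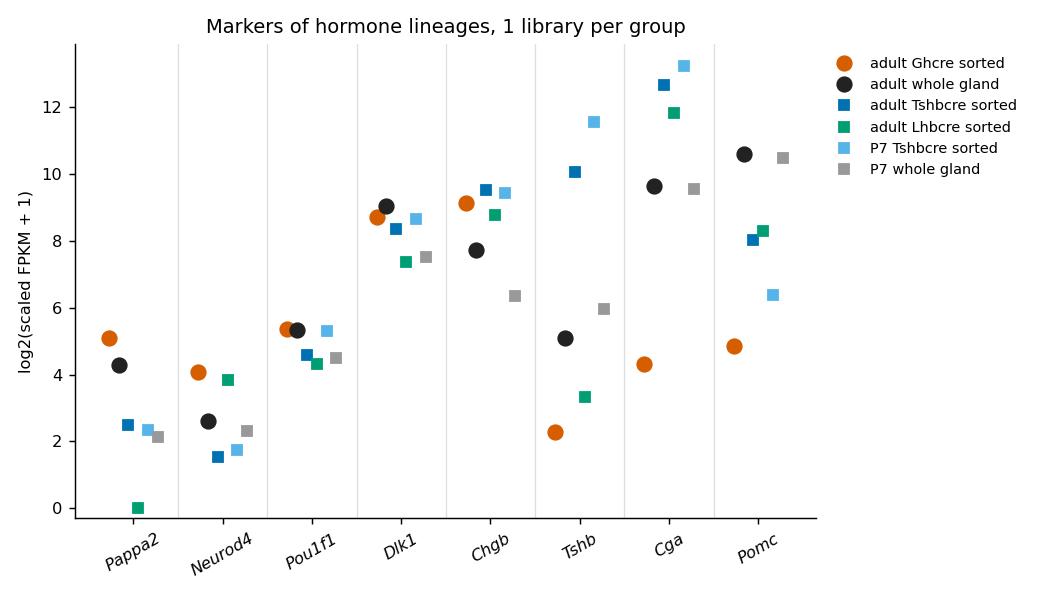
Levels of 8 hormone-lineage genes in the 6 libraries as log2(scaled FPKM + 1), 1 point per library, with the Ghcre library in orange and the adult whole gland in black. Pappa2 and Neurod4 were highest in the Ghcre library, and Tshb, Cga and Pomc were lowest there.

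Across all genes compared, few differed 4-fold between the sorted cells and the gland. A gene was counted as apart when log2(scaled FPKM + 1) differed by at least 2, which is 4-fold on that scale. By this rule the Ghcre library was higher for 83 genes (0.839%) and lower for 193 (1.95%). At 2-fold these were 728 (7.36%) and 1055 (10.7%). Small RNAs gave 38 of the 83 higher genes. Of 7234 protein-coding genes, 21 were higher (0.290%) and 173 lower (2.39%), and at 2-fold 345 (4.77%) and 977 (13.5%). With genes listed at 0 in 1 library included, 501 (4.44%) were higher and 605 (5.36%) lower. A listed 0 need not be absence: of 150 protein-coding genes at 0 in the Ghcre library and at 5 or more in the whole gland, 87 were above 0 once assembled transcripts were added, and 6 of these were still 4-fold lower, while 63 remained at 0. Of 100 at 0 in the whole gland and at 5 or more in the Ghcre library, 57 were above 0 with them and none of these was still 4-fold higher, while 43 remained at 0.

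**Figure D2:**
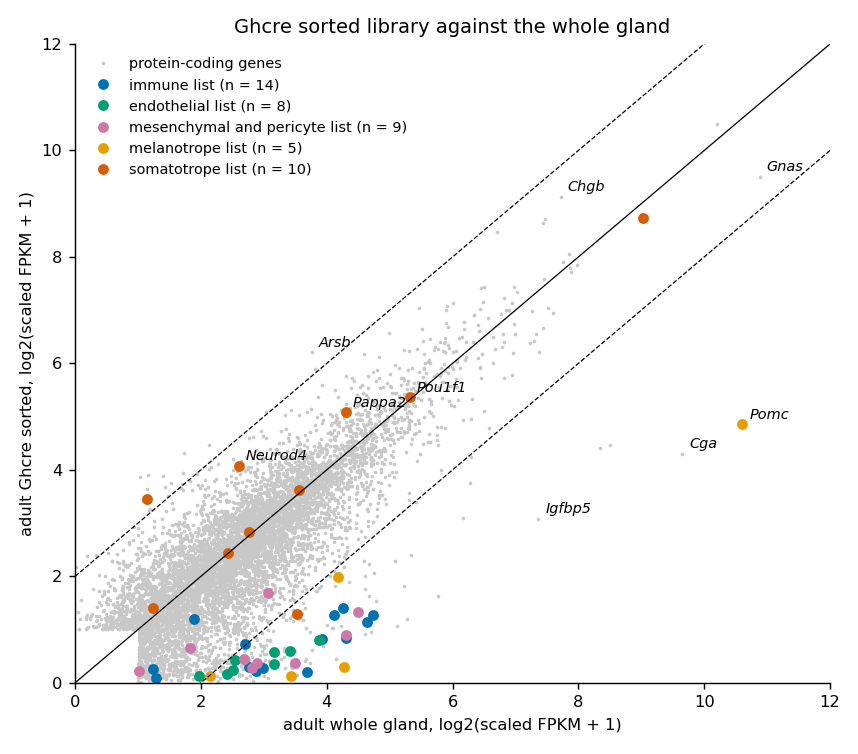
Protein-coding genes above 0 in both libraries, with the whole gland on the x axis and the Ghcre library on the y axis, both as log2(scaled FPKM + 1). The solid line marks equal levels and the dashed lines 4-fold, and the immune, endothelial, mesenchymal and melanotrope lists lie mostly below the lower dashed line.

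Among protein-coding genes above 0 in both libraries and at 5 or more in the higher, Pomc and Cga had the largest differences on the log2(scaled FPKM + 1) scale. By plain share of the gland Oacyl, at 1.27%, and Lyz2, at 1.30%, lay below Pomc, at 1.79%, and Cga, at 2.33%. Folds here are on that log2 scale, and the other sorted adult libraries share this gland as their comparison. Pomc (chromosome 12, 4004945 to 4010643) stood at 27.9 in the Ghcre library and 1555 in the whole gland, 53.8-fold lower. Its level was 260, 312, 82.6 and 1428 in the adult Tshbcre, adult Lhbcre, P7 Tshbcre and P7 whole libraries, so each sorted library was below both whole glands. Cga (chromosome 4, 34893779 to 34907374) stood at 18.7 and 805, 40.9-fold lower, and at 18.7 and 1289 with assembled transcripts added. In the other sorted libraries Cga was above the whole gland, at 6546, 3649 and 9593 in adult Tshbcre, adult Lhbcre and P7 Tshbcre. Tshb, the beta subunit of thyrotropin, stood at 3.87 and 33.1, and at 7.35 and 33.1 with assembled transcripts. Fshb, the beta subunit of follicle-stimulating hormone, is listed at 0 in the Ghcre library and stood at 180 in the whole gland, or 2.75 and 180 with assembled transcripts.

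A list member was compared where it was above 0 in both libraries and at 1 or more in at least 1, so members low in both do not count. A member under 1 in the Ghcre library entered only through the gland, so it could only be lower. Beside the list counts, 2.39% of all protein-coding genes compared were 4-fold lower and 0.290% higher. The melanotrope list had 10 genes, 8 of them listed in both tables, the gonadotrope list 19 and 11, the somatotrope list 14 and 12, the immune list 18 and 16, the endothelial list 18 and 12, the mesenchymal list 16 and 11, and the IGF axis 21 and 15. Among melanotrope markers the 5 members compared were each 4-fold lower, with a median log2 difference of -3.31 against 0.00 over all genes. Tbx19, Pax7 and Oacyl entered only through the gland. With no minimum the list median, less that of all genes, was -2.25. Tbx19, the transcription factor of POMC cells, stood at 0.0888 in the Ghcre library and 9.78 in the whole gland. Pax7, which specifies melanotropes, stood at 0.0990 and 3.44, and Pcsk2, a prohormone convertase, at 2.96 and 17.0, or 2.96 and 30.9 with assembled transcripts. Of 8 gonadotrope markers 4 were lower and none higher, with a median of -1.74. Besides Cga these were Nr5a1, a nuclear receptor of gonadotropes, at 0.0874 and 5.08, Grem1 at 0.0261 (deposited bounds 0 and 0.0523) and 3.85, and Inhbb, an inhibin and activin subunit, at 0.273 and 5.67. Of 6 corticotrope markers, Pomc and Tbx19 were lower and Crhbp was higher. Crhbp, which binds corticotropin-releasing hormone, stood at 4.22 in the Ghcre library and 0.140 in the whole gland, with deposited bounds of 0.0588 and 0.221 for the latter, or at 10.3 and 0.140 with assembled transcripts. It is listed at 0 in the other 4 libraries.

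The lactotrope list had no member 4-fold apart of 5 compared. On annotated transcripts each of the 5 was below the gland, with a median of -0.63, or -0.06 with assembled transcripts. Zbtb20, a zinc finger factor, stood at 11.5 and 25.7, Agtr1a, an angiotensin receptor, at 6.84 and 11.2, and Gal, the galanin gene, at 0.935 and 2.71. Esr1, the estrogen receptor, stood at 19.9 and 20.8, and Angpt1 at 7.96 and 8.15. Edil3 is listed at 0 in the Ghcre library against 8.47 in the gland, and stood at 18.6 and 8.47 with assembled transcripts. Of 6 thyrotrope markers compared, Tshb and Cga were 4-fold lower and none was higher, with a median of -0.67. At 2-fold 3 were lower, and 4 of the 6 were below the gland. Of those not 4-fold apart, Dio2, a deiodinase, stood at 3.51 and 3.87, and Thrb, a thyroid hormone receptor, at 17.7 and 11.9.

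Of 10 somatotrope markers compared, 1 was higher and 1 lower, against 0.290% and 2.39% of all protein-coding genes. By itself 1 call each way is not a result about this list. The list median was 0.06. Less the median of all genes it was 0.00 to 0.27 over the alternatives tried. Dlk1, an imprinted Notch-like protein, stood at 423 and 522. Stat5a, a transducer of growth hormone signals, stood at 9.93 and 1.21 but at 12.1 and 6.31 with assembled transcripts. Foxo1, a forkhead factor, stood at 1.46 and 10.5 but at 11.2 and 10.5 with them. Neither was 4-fold apart on the second sum. Stat5b, the paralog of Stat5a, stood at 11.3 and 10.8.

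Marker lists of immune, endothelial and mesenchymal cells had most of their compared members 4-fold lower, and the stem and glial lists did not. Of all protein-coding genes compared, 2.39% were 4-fold lower. Members under 1 in the Ghcre library entered these lists, too, only through the gland. Of 14 immune markers 10 were 4-fold lower and none higher, with a median of -2.78, and the summed level of the list was 10.2 in the Ghcre library against 224 in the gland, or 4.57%. C1qb, a complement subunit of macrophages, stood at 0.792 and 18.8, Ctss, a lysosomal protease, at 1.20 and 24.0, and Lyz2, a lysozyme, at 0.154 and 11.9. Cd74, the invariant chain of antigen presentation, is listed at 0 in the Ghcre library and stood at 63.9 in the gland. Of 8 endothelial markers 7 were lower, with a median of -2.43 and a summed level at 4.96% of the gland. Emcn, an endothelial sialomucin, stood at 0.745 and 13.7, and Tie1, an endothelial receptor kinase, at 0.273 and 7.92. Eng and Cldn5 are listed at 0 in the Ghcre library, and Cd74, Eng and Cldn5 were at 0 there also with assembled transcripts.

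Of 9 mesenchymal and pericyte markers 6 were lower, with a median of -2.52 and a summed level at 7.58% of the gland. Rgs5, a pericyte gene, stood at 1.51 and 21.6, and Col1a1 at 0.298 and 10.3. The alpha globin genes Hba-a1 and Hba-a2, whose near-identical reads cannot be told apart, stood at 21.0 and 20.3 in the Ghcre library and at 360.0 and 325 in the gland. Of 6 markers of the posterior lobe, 3 were lower, among them Oxt, the oxytocin gene, at 0.283 and 5.29. Of 16 stem and folliculostellate markers 3 were lower and 16 below the gland, with a median of -0.85. With libraries scaled to equal sums of FPKM the median was 0.02, where that of all genes was 1.07. Less the median of all genes it was -1.55 to -0.57 over the alternatives tried. Sox2, the stem cell factor, stood at 0.294 and 6.95, and Krt18, a keratin, at 14.1 and 18.0. Of 4 glial and Schwann markers none was 4-fold apart, with a median of -0.73, or -0.07 with assembled transcripts. Mbp, a myelin gene, stood at 3.08 and 4.51. In bulk RNA, fewer cells of a type and less RNA per cell cannot be told apart.

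**Figure D3:**
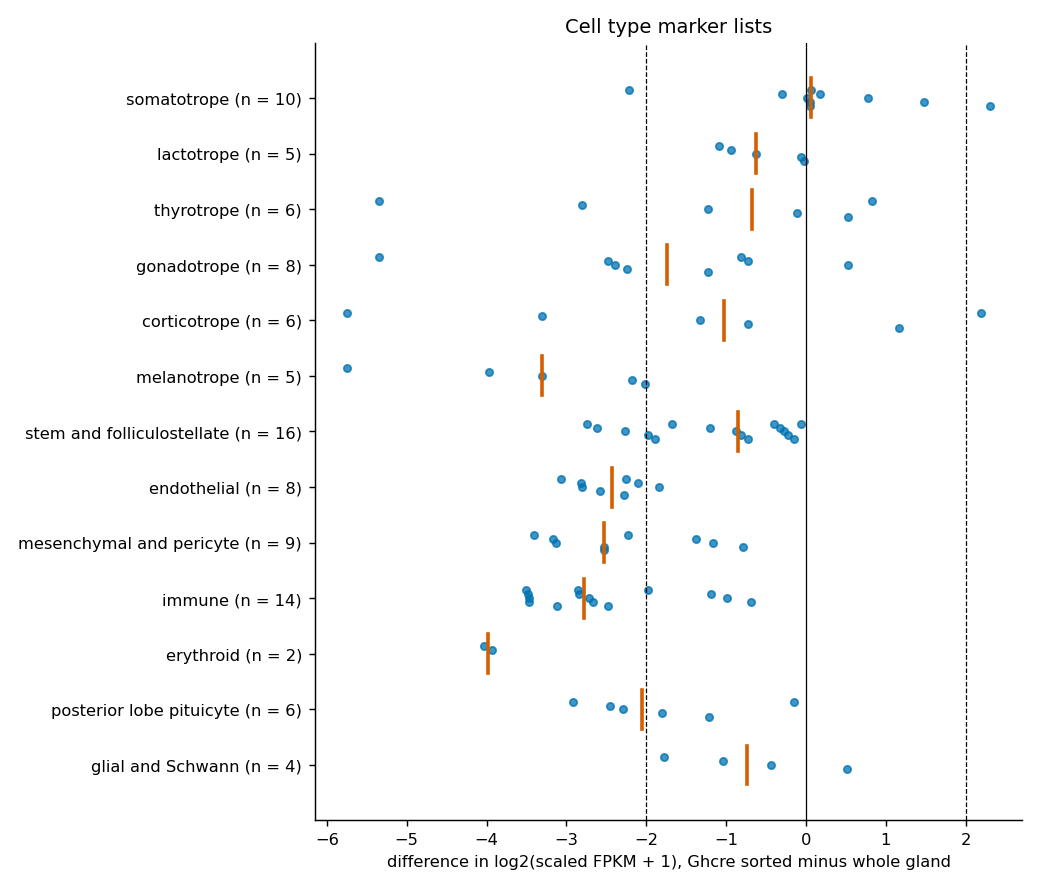
Difference in log2(scaled FPKM + 1), Ghcre library minus whole gland, for the members of each marker list above 0 in both, with 1 point per gene and the list median in orange. The dashed lines mark 4-fold, and the melanotrope, endothelial, mesenchymal, immune, erythroid and posterior lobe medians lie beyond the lower one.

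Of 8 genes of the IGF axis compared, 4 were 4-fold lower and none higher, against 2.39% lower and 0.290% higher of all protein-coding genes. The 4 were Igfbp2, Igfbp3, Igfbp4 and Igfbp5, which encode carriers that hold insulin-like growth factors outside cells. Igfbp6, the other carrier compared, was also below the gland, at 0.138 and 1.62. It was not 4-fold apart on the log2(scaled FPKM + 1) scale, which understates differences of low genes. Igfbp5 (chromosome 1, 72897224 to 72914024) stood at 7.46 in the Ghcre library and 164 in the gland, 19.5-fold lower. The adult Tshbcre, adult Lhbcre, P7 Tshbcre and P7 whole libraries held 148, 26.1, 207 and 114, so the Ghcre library was the lowest of the 6. Igfbp3 stood at 1.11 and 33.6, Igfbp4 at 0.883 and 23.3, and Igfbp2 at 0.568 and 7.03. Irs1, an adaptor of the IGF receptor, stood at 1.49 and 1.80. Igfbp2, Igfbp4 and Igfbp6, under 1 in the Ghcre library, entered only through the gland. The list median, less that of all genes, was -1.78, and -0.27 with no minimum. The summed level of the matrix list, 15.3% of the gland, and of the mesenchymal list, 7.58%, was lower in the same library, and the part of those cells in the Igfbp levels was not tested.

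**Figure D4:**
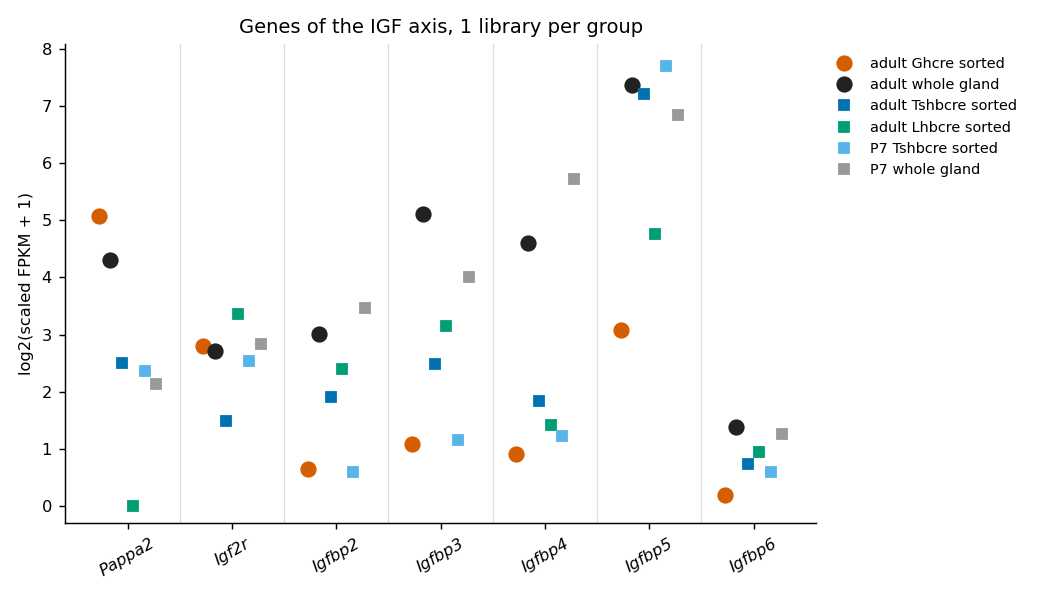
Levels of 7 genes of the IGF axis in the 6 libraries as log2(scaled FPKM + 1), 1 point per library. The Ghcre library was highest for Pappa2 and lowest for Igfbp5, at 7.46 scaled FPKM.

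Extracellular matrix genes had 11 of 26 members 4-fold lower and none higher, with a median of -1.85. Of all protein-coding genes, 2.39% were lower and 0.290% higher. Members under 1 in the Ghcre library entered this list only through the gland, so they could only be lower. The same holds for the transcription factor and Notch lists. Timp3, an inhibitor of matrix proteases, stood at 1.29 and 37.7, Sparc at 2.52 and 36.3, and Nid1, a basement membrane linker, at 0.367 and 10.3. Of 26 pituitary transcription factors, 6 were lower and Stat5a higher on annotated transcripts. Pitx1, a homeodomain factor of the anterior lobe, stood at 17.8 and 32.0, while Six6 stood at 13.6 and 11.1. Of 19 Notch pathway genes, Hey1 was lower, at 0.604 and 6.71, and Notch1 is listed at 0 in the Ghcre library and stood at 6.94 in the gland. By itself 1 call at 4-fold is not a result about this group. At 2-fold 9 of the 19 were lower, against 13.5% of all protein-coding genes.

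Genes of dense-core secretion differed in both directions. Of 22 compared, Pcsk2 was 4-fold lower and none higher, and at 2-fold 4 were lower and 1 higher. These shares are near those of all protein-coding genes (2.39% and 0.290% at 4-fold, 13.5% and 4.77% at 2-fold), so the counts are not a result about this group. Chgb, a granin of secretory granules, stood at 558 in the Ghcre library and 209 in the gland, and Chga at 54.1 and 122, or 54.1 and 235 with assembled transcripts. Nnat, an imprinted ER membrane protein, had the highest level of any listed protein-coding gene in the Ghcre library, at 1451 and 1176. Among 22 ER folding genes compared, none of which was 4-fold apart, a count that the shares of all protein-coding genes would also give, Hspa5, the ER chaperone BiP, stood at 190 and 174 and Xbp1 at 36.7 and 37.7. Ddit3, a stress-induced transcription factor, stood at 59.9 in the Ghcre library and is listed at 0 in the other 5 libraries, and in the whole gland also with assembled transcripts.

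None of 25 ion channel genes was 4-fold apart, which the shares of all protein-coding genes (0.290% and 2.39%) would also give. Cacna1d, an L-type calcium channel, stood at 19.8 and 14.2, and Nalcn, a sodium leak channel, at 13.4 and 11.5. Of 23 cAMP signalling genes Prkar2b, a protein kinase A subunit, was higher, at 12.3 and 2.23, or 12.3 and 5.98 with assembled transcripts. Gnas, the stimulatory G protein gene, stood at 725 and 1883. Adcy6 stood at 39.5 and 35.4. The medians of these lists lay between -0.25 and 0.14. Less the median of all genes, the ER median was 0.07 to 0.45 over the alternatives tried, and the medians of the secretion, channel and cAMP lists changed sign.

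Of 12 heat shock genes none was 4-fold apart and 5 were at least 2-fold higher, against 4.77% of protein-coding genes and 7.36% of all genes. At 2-fold 1 was lower, against 13.5% of protein-coding genes, and 4 of the 12 were below the gland. Hspa1a, an inducible chaperone, stood at 417 and 177, Dnaja1 at 23.1 and 7.19, and Hspe1 at 53.1 and 24.3. Hsp90ab1, among the most abundant members, stood at 266 and 230. The summed level of the list was 1317.5 in the Ghcre library and 760 in the gland. In the adult Tshbcre and adult Lhbcre sorted libraries it was 448 and 1012. The list median was 0.50, or -0.02 on FPKM as deposited, where that of all genes was -0.45. Less the median of all genes it was 0.43 to 0.96 over the alternatives tried. Hspa1a and Hspa1b are near-identical copies whose reads cannot be told apart. Among 20 immediate early genes, Fos stood at 171 and 89.7, Egr1 at 51.7 and 86.2, and Socs3, an inhibitor of cytokine signals, 4-fold higher on annotated transcripts, at 31.9 and 13.3 with assembled ones. The Ghcre cells were dissociated and sorted and came from other animals than the gland, and these differences cannot be told apart.

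**Figure D5:**
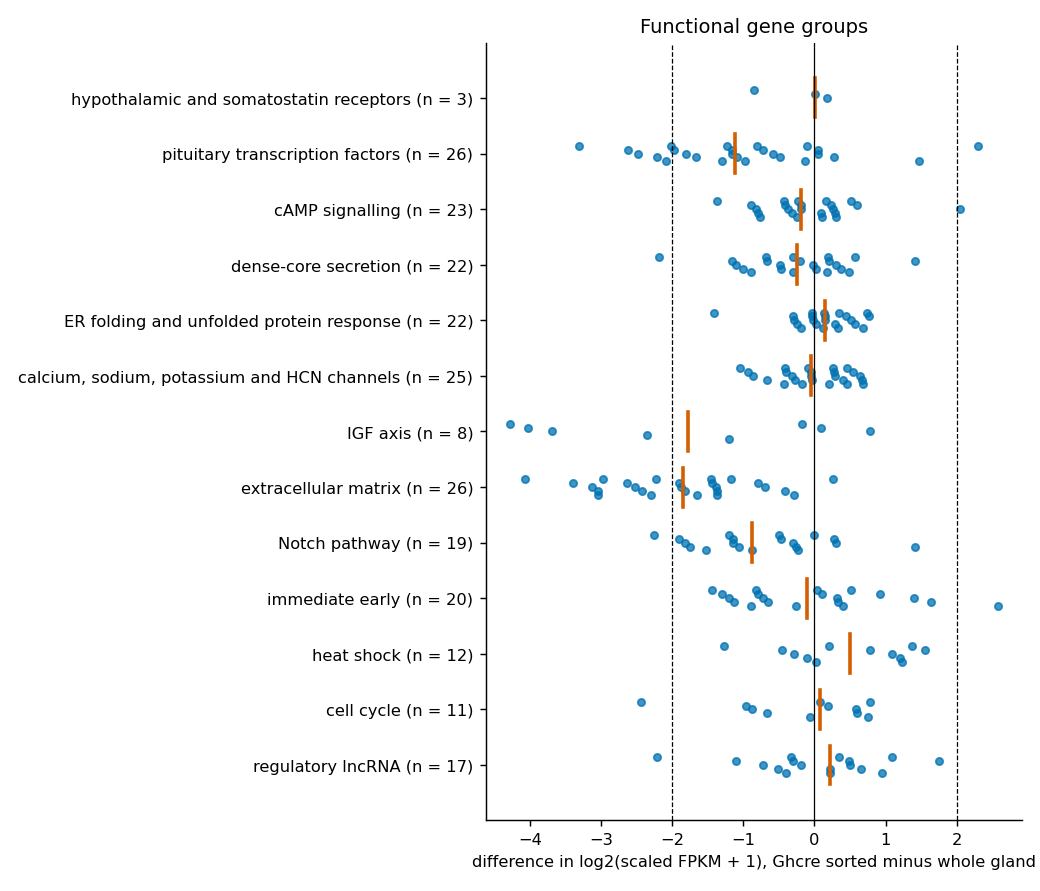
Difference in log2(scaled FPKM + 1), Ghcre library minus whole gland, for the members of each functional group above 0 in both, with 1 point per gene and the median in orange. The IGF axis and extracellular matrix medians were -1.78 and -1.85, and less the median of all genes that of the IGF axis was -0.79 with assembled transcripts.

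Protein-coding genes 4-fold higher in the Ghcre library on both sums, at 5 or more, numbered 3. Arsb, the lysosomal arylsulfatase B (chromosome 13, 93908187 to 94079524), stood at 73.1 and 12.5, with 16.6, 24.6, 11.7 and 8.90 in the adult Tshbcre, adult Lhbcre, P7 Tshbcre and P7 whole libraries. Nkiras1, which overlaps Ube2e1, stood at 13.6 and 1.04. Uhrf1bp1l stood at 14.4 and 2.28. Those lower on both sums at 5 or more numbered 120.

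Gm42186, a gene of lncRNA biotype in RefSeq (chromosome 3, 17171297 to 17193926), has a deposited transcript of 73 nt, a length at which FPKM turns few fragments into a high value and cannot be compared with that of longer genes. It stood at 5818 in the Ghcre library, with deposited bounds of 4982 and 6653, and 25.3 in the gland, with bounds of 0 and 126, so no fold is given. It reached 5927 in adult Lhbcre, 1596 in P7 Tshbcre, 96.4 in adult Tshbcre and 261 in P7 whole. The Ghcre and adult Lhbcre libraries were the highest. Gm51921, a long non-coding RNA of 2536 nt, stood at 26.3 and 312, and at 31.0 in the adult Lhbcre library. The small nucleolar RNAs Snora21, of 128 nt, and Snord55, of 78 nt, stood at 62.9 and 3.35 and at 39.0 and 272. The same limit of short length applies to them. Snora21 stood at 119 in adult Lhbcre, above its Ghcre level, and Snord55 is listed at 0 in all libraries but Ghcre and the adult gland. Of 17 regulatory lncRNAs, Six3os1 was 4-fold lower, at 0.201 and 4.58, and none was higher, while Norad stood at 64.9 and 55.8. Of 668 lncRNAs compared, 2 were lower and 5 higher, and of all genes 1.95% and 0.839%. Six3os1 entered only through the gland, and by itself 1 call is not a result about this group.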

How the data were processed

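Total RNA of 6 libraries was read from the isoform tables that the authors deposited. FPKM, its bounds and the coverage signal are the authors' values in those deposited tables, and the tools FastQC, Bowtie2 and Cufflinks and the build mm39 come from the submitters' processing notes, which give no versions. No source used here says whether counting used strand. Overlapping genes therefore cannot be told apart. Depth was read from coverage per FPKM. Libraries were scaled by the median of ratios over 5808 genes at 1 FPKM or more in all 6, with factors of 0.758 for Ghcre and 1.10 for the whole gland. Differences are of log2(scaled FPKM + 1), which understates those of low genes. Assembled transcripts of 200 nt or more were added, as an alternative, where a locus held 1 named gene. Genes considered for naming were the 3 markers, and list members that were 4-fold apart with up to 4 abundant others. To these came the 15 largest protein-coding and 6 largest non-coding differences each way, and the 15 highest genes. Not all of these are named, and some list members outside this rule are, so the named genes are a chosen subset. The members and lists were chosen with earlier results of these data known. Calls were tested on simulated data with counting noise only, where some genes near the 4-fold threshold were missed. The limit that the test then met was set after those misses were seen. Python 3.11.15, pandas 2.3.3 and NumPy 2.4.6 were used.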

Additional observations from a re-analysis of the deposited data

How the results depend on the processing

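The counts of 83 higher and 193 lower genes depended on the scaling. They were 38 and 316 on FPKM as deposited, where the median of all genes was -0.45, and 1004 and 68 at equal sums, where it was 1.07, so higher genes made up 30.1%, 10.7% and 93.7% of calls. They were 342 and 620 with a pseudocount of 0.1, 501 and 605 with zeros included (45.3% higher) and 728 and 1055 at 2-fold. With assembled transcripts added 128 genes were higher (38.3% of calls). Among protein-coding genes only, a restriction chosen after seeing the data, 21 were higher on annotated transcripts. Of these, 6 were higher also with assembled transcripts added. List medians, here less the median of all genes, moved with a pseudocount of 0.1 to -5.71 (melanotrope), -4.07 (immune), -4.01 (endothelial), -3.75 (mesenchymal), -3.50 (posterior lobe), -3.29 (gonadotrope), -3.14 (extracellular matrix), -3.13 (IGF axis), -1.55 (stem) and -1.38 (thyrotrope). With a minimum of 5 they were -2.97 (IGF axis), -2.48 (matrix), -2.27 (corticotrope) and -1.60 (cell cycle), and with no minimum -2.25 (melanotrope), -1.28 (posterior lobe) and -0.27 (IGF axis). The IGF axis was -0.79 with assembled transcripts, the melanotrope list -2.59 as deposited, the gonadotrope list -2.33 at equal sums and the receptor list -0.85 with zeros. Not centred, only the gonadotrope, melanotrope, endothelial, mesenchymal, immune, erythroid, posterior lobe, IGF axis and matrix medians kept their sign under every scaling tried. Foxo1 reversed to 0.010 with assembled transcripts. The causes were not tested. The centring on the median, and the limits by which a value was said to move, were chosen after seeing the data. No paired analysis was possible because each group is 1 library, and no replicate could be left out. Values well under 1 scaled FPKM rest on few fragments and have wide bounds, and differences between animals were not measured.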
